A study of Mus musculus with 12 samples.

Results

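The comparison described here set 2 libraries from the striatum of mice labelled STING-KO against 2 from WT mice, each taken 14 days after ischemic stroke. They are 4 of the 12 RNA libraries of a series that also holds cGAS-KO mice and a 7-day time point, with 2 libraries in each of its 6 groups and no uninjured group. Per the labels, all mice were on a C57BL/6J background, the knockout lines were made with CRISPR-Cas9 and poly(A) RNA was sequenced. The labels name no promoter or cell type that limits the knockout, so the cell type in which a change began cannot be read from these data. The members are all genes: 19822 of the 54532 annotated genes passed the filter on low counts and were tested. The 4 libraries held 15956242 to 17579858 counts. Levels are CPM, read counts scaled to a common library total after TMM normalisation. Differences are log2 changes of STING-KO over WT with their standard errors, and a gene is called when edgeR's quasi-likelihood p, adjusted over all tested genes by Benjamini-Hochberg, is below 0.05. The labels do not say that the 2 libraries of a group came from separate mice. A p-value here therefore reflects only how far libraries spread within groups, which may be technical variation. That spread was estimated over all 6 groups, not from the 4 libraries alone.

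cGAS binds double-stranded DNA in the cytosol and makes the cyclic dinucleotide cGAMP, which STING, an adaptor of the endoplasmic reticulum, binds. STING then recruits the kinase TBK1, which activates the transcription factor IRF3 to induce type I interferon, and it also activates NF-kB. Interferon in turn acts through its receptor and JAK-STAT signalling to induce a broad set of interferon-stimulated genes, and in the brain microglia are a main site of STING expression. The striatum is built mostly of GABAergic projection neurons that carry the dopamine receptor Drd1 (direct pathway) or Drd2 (indirect pathway), with few interneurons, and it lies in the core of the tissue damaged when the middle cerebral artery is blocked.

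The targeted transcript was lower in the libraries of its label at 14 days. Tmem173, the gene of STING (ENSMUSG00000024349; chromosome 18, 35733679 to 35740554, minus strand), stood at 22.2 and 20.8 CPM in WT replicates 1 and 2 and at 2.4 and 5.21 CPM in STING-KO replicates 1 and 2. The groups did not overlap, and the difference was called (log2 change -2.51 ± 0.27, adjusted p = 8.19e-05). At 7 days the values went against the label, with 2.8 and 2.71 CPM in WT and 20.9 and 23.8 CPM in the libraries labelled STING-KO. The effects at the 2 times differed by -5.53 ± 0.39 (adjusted p = 4.56e-07). Whether the labels of the 7-day WT and the STING-KO groups are as given was not tested, and every STING-KO value here rests on them. Counts per gene cannot show a short CRISPR-Cas9 deletion that leaves the transcript in place, and the labels do not say which exon was cut. Cgas, the sensor upstream (chromosome 9), stood at 12.6 and 7.68 CPM in WT and at 4.5 and 3.58 CPM in STING-KO (log2 change -1.32 ± 0.30, adjusted p = 0.00603), and its call was lost without WT replicate 1 (adjusted p = 0.0623). Within 500 kb of Tmem173, 15 genes were tested, of which 1 was higher and 5 were lower, against 16.5% and 17.4% of all tested genes. Their log2 changes ran from -5.10 to 0.97, with a median of -0.12.

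Of all tested genes 33.9% were called, 3265 higher in STING-KO (16.5%) and 3452 lower (17.4%), and the median log2 change of all genes was -0.03. Large changes lay more on the lower side. At least 4-fold differences were called for 402 genes that were higher and 963 that were lower, and at least 8-fold ones for 84 and 364. The libraries of both groups did not overlap for 63.5% of tested genes. The count of called genes fell from 6717 to 4203 without WT replicate 1 (1904 higher and 2299 lower) and to 4271 in a fit of the 4 libraries alone (1975 higher and 2296 lower), and without STING-KO replicate 1 the lower genes numbered 2177. Among the 15151 genes with a mean of at least 1 on the log2 CPM scale, 951 stood more than 2-fold higher in STING-KO replicate 2 than in replicate 1 and 163 the other way round, where WT had 216 and 185. The STING-KO replicates therefore differed from each other more than the WT replicates, mostly with replicate 2 higher. Mitochondrial transcripts took 8.52% and 5.82% of counts in WT and 2.95% and 5.49% in STING-KO. On the first principal component, with 50.9% of the variance, the STING-KO libraries scored -118 and -90, the 14-day WT libraries 16.5 and 4.13, and the 7-day WT libraries, which the second component set apart, -89.3 and -103.

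**Figure D1:**
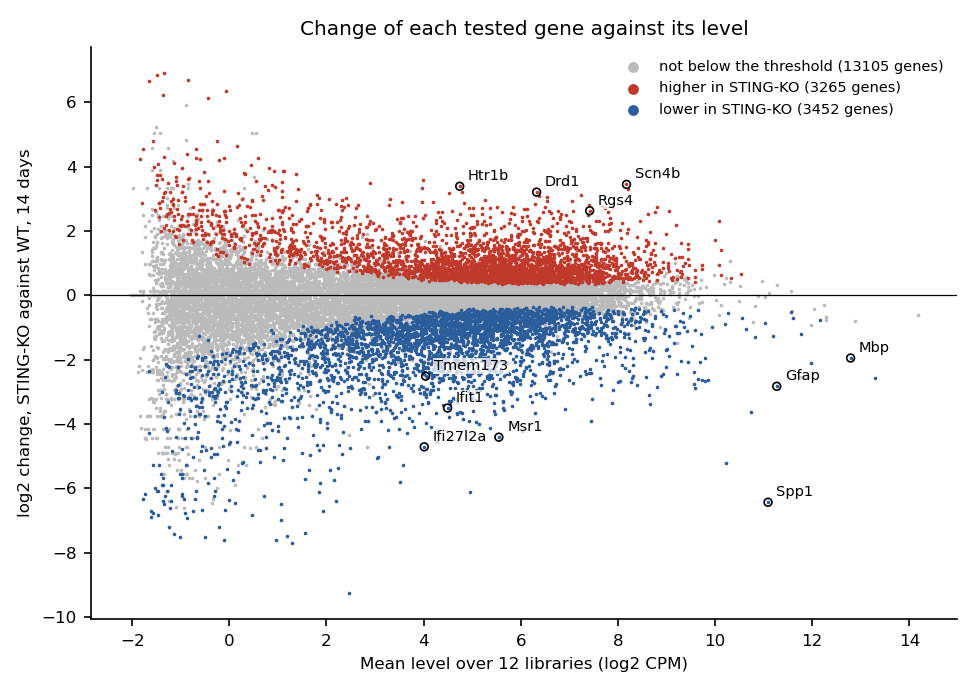
Log2 change of STING-KO over WT at 14 days (y axis) against the mean level over all 12 libraries in log2 CPM (x axis) for the 19822 tested genes. Red points are the 3265 genes called higher, blue points the 3452 called lower, grey points the rest, and circled genes are named in the text; at high levels Spp1, Gfap and Mbp lie below 0.

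The genes of the cGAS-STING pathway itself were lower in 10 of 19 tested members and higher in 4 (median -0.76). Among all tested genes 17.4% were lower and 16.5% higher, and the share of members called higher lay near the second value. Ikbke, the kinase IKK-epsilon that acts beside TBK1 (chromosome 1), had 20.2 and 23.8 CPM in WT libraries and 4.14 and 4.68 CPM in STING-KO (log2 change -2.32 ± 0.24, adjusted p = 7.51e-05). Both STING-KO libraries lay well below both WT libraries. Samhd1, a dNTP-degrading enzyme that limits DNA sensing, fell from 85.5 and 76.4 CPM to 27.4 and 35.3 CPM (log2 change -1.37 ± 0.21, adjusted p = 0.000567). Trim56, a ubiquitin ligase of the pathway, fell from 34.9 and 30.8 CPM to 12.5 and 16.9 CPM (log2 change -1.16 ± 0.18, adjusted p = 0.000608). The 4 called higher, named after their values were seen, were Tbk1, Trim32, Tollip and Stim1, with log2 changes from 0.37 to 0.86, but only 1 of the list's members was called higher without WT replicate 1, 2 without WT replicate 2 and 2 without STING-KO replicate 1; with library totals alone, in the 14-day libraries alone or in the 4 libraries alone it was 1 as well, and 2 without a filter or without the 7-day WT group.

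Interferon receptors and JAK-STAT genes were lower in 13 of 15 tested members (median -1.37), and 1, the kinase Jak2, was higher (0.73; 2 members by DESeq2). Ifnar2, a chain of the type I interferon receptor (chromosome 16), stood at 32.9 and 33.6 CPM in WT libraries and 14.7 and 17.3 CPM in STING-KO (log2 change -1.05 ± 0.15, adjusted p = 0.00043). Stat2, a transcription factor activated by type I interferon, fell from 142 and 93.7 CPM to 33.4 and 40.7 CPM (log2 change -1.67 ± 0.24, adjusted p = 0.000389). Irf8, a transcription factor of microglia and other myeloid cells, fell from 104 and 109.5 CPM to 11.8 and 27.2 CPM (log2 change -2.46 ± 0.29, adjusted p = 0.000177). Irf1, induced by interferon gamma, had 20.5 and 18.3 CPM in WT libraries and 3 and 4.88 CPM in STING-KO (log2 change -2.31 ± 0.31, adjusted p = 0.000267). For each of these genes the groups were apart. Ifnb1 and Ifng themselves did not pass the filter on low counts.

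Interferon-stimulated genes were lower almost without exception. Of 72 tested, 71 were lower and 0 higher, against 17.4% lower among all genes, with a median log2 change of -2.84 and a range from -6.39 to -0.80. Apol9a was the member that was not called (log2 change -2.79, unadjusted p = 0.0243). Ifit1, which binds foreign RNA ends (ENSMUSG00000034459; chromosome 19, 34640871 to 34650009, plus strand), had 94.6 and 49.7 CPM in WT libraries and 5.39 and 7.35 CPM in STING-KO (log2 change -3.502 ± 0.52, adjusted p = 0.000557). Isg15, a ubiquitin-like modifier, had 23.8 and 14.7 CPM in WT libraries and 3.6 and 3.45 CPM in STING-KO (log2 change -2.45 ± 0.45, adjusted p = 0.00182). Ifi27l2a (ENSMUSG00000079017; chromosome 12, 103442167 to 103443680, minus strand) went from 58.5 and 40.1 CPM in WT to 1.26 and 2.54 CPM in STING-KO (log2 change -4.71 ± 0.40, adjusted p = 3.28e-05), the smallest adjusted p of the list. In all 3 genes WT replicate 1 was the highest of the 4 libraries and both STING-KO libraries lay far below WT. Slfn2, a Schlafen gene of immune cells, stood at 28.1 and 19.2 CPM in WT libraries and 2.28 and 2.08 CPM in STING-KO (log2 change -3.43 ± 0.37, adjusted p = 7.79e-05).

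Promoters of these genes were searched for letters like those of the interferon-stimulated response element. The motif searched was GAAANNGAAA, in which 2 GAAA blocks are spaced by 2 bases, on both strands, in RefSeq promoters (GRCm38.p6) from 250 bases before to 50 after a start. It was found in 34 of the 56 tested interferon-stimulated genes with an entry (60.7%), in 3.81% of all 13423 tested genes with an entry and in 3.44% of all 32851 promoters. Overlapping matches share a GAAA block, and a match is a run of letters, not a measured binding site. The promoters below are those of the called interferon-stimulated genes with the smallest adjusted p among those that hold the motif; each is written 5′ to 3′ along the gene's own strand, with the motif in capitals (as TTTC blocks where it lies on the other strand).
Shisa5, chr9:109054616-109054915, + strand: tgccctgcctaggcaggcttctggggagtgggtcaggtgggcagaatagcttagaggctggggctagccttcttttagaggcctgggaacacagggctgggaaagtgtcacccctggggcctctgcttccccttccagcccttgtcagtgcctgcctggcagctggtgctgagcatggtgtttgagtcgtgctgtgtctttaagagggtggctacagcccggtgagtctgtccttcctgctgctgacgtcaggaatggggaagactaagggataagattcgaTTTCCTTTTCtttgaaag
Ifi207, chr1:173741760-173742059, - strand: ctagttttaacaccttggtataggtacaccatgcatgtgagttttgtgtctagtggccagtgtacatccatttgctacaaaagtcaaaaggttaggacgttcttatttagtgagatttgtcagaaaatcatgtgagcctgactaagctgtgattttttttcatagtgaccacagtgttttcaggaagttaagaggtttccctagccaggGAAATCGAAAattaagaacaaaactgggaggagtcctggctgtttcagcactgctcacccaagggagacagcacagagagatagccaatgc
Bst2, chr8:71537423-71537722, - strand: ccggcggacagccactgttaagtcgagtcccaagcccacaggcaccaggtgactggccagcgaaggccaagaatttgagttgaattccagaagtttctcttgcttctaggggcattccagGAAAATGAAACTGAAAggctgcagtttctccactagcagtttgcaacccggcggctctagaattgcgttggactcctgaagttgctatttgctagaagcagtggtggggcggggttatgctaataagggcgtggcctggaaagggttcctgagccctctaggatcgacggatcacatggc
Trim21, chr7:102565433-102565732, - strand: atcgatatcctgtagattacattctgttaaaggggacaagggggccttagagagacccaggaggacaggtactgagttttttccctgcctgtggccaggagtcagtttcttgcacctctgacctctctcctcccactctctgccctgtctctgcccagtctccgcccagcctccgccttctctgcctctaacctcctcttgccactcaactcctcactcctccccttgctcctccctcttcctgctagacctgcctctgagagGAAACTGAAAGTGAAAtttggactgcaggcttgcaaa

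Counted from the start as base 1, with negative numbers before it, the match of Shisa5 began at 33, that of Ifi207 at -41, the 2 overlapping matches of Bst2 at -130 and -124 and those of Trim21 at 14 and 20. The Shisa5 sequence is 1 of 5 promoter entries of that gene and belongs to a start inside the annotated gene. Shisa5, a membrane protein linked to apoptosis, had 134 and 121 CPM in WT libraries and 24.3 and 37.5 CPM in STING-KO (log2 change -2.04 ± 0.19, adjusted p = 4.64e-05). Ifi207, one of the Ifi200 family of DNA-binding proteins, had 47.3 and 45.8 CPM in WT libraries and 0.959 and 3.19 CPM in STING-KO (log2 change -4.51 ± 0.43, adjusted p = 5.54e-05). Bst2, the tetherin that holds budding viruses at the cell surface, fell from 93.7 and 81.6 CPM to 2.64 and 8.52 CPM (log2 change -3.98 ± 0.43, adjusted p = 0.000116). Trim21, the cytosolic antibody receptor, fell from 16.5 and 12.6 CPM to 3.72 and 3.19 CPM (log2 change -2.07 ± 0.24, adjusted p = 0.000144). In the first 3 of these genes STING-KO replicate 2 was the higher of its pair; in Trim21 replicate 1 was.

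**Figure D2:**
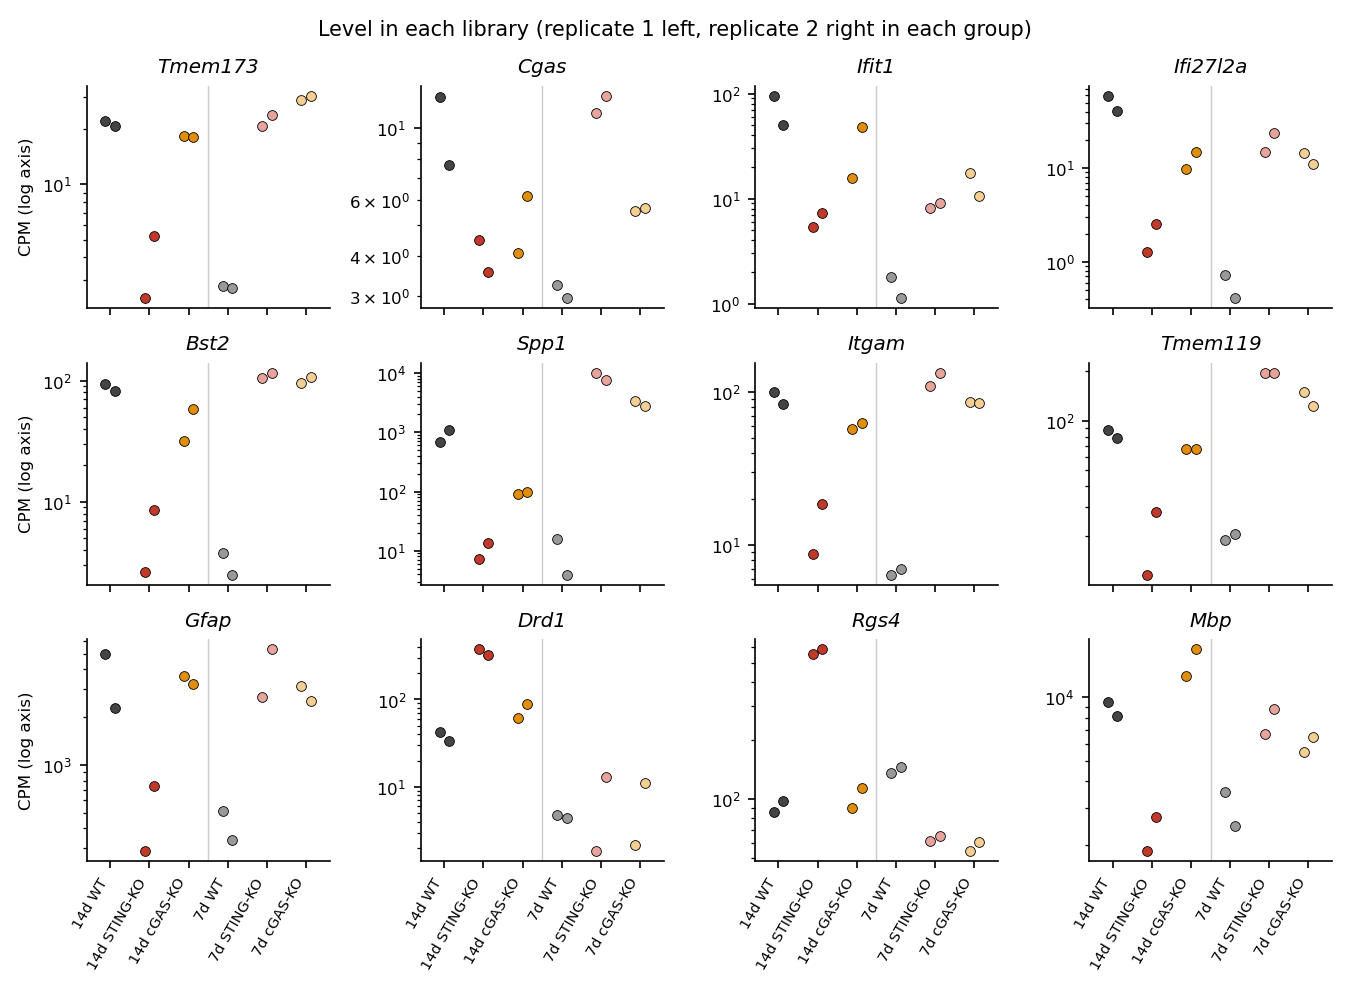
Level of 12 genes in CPM (y axes, log scale) in each library of the 6 groups (x axis; 14-day groups left of the grey line, 7-day groups right), with replicate 1 left and replicate 2 right. The 14-day STING-KO libraries lie below the 14-day WT and cGAS-KO libraries for Tmem173, the interferon-stimulated genes Ifit1, Ifi27l2a and Bst2, Spp1, Itgam, Tmem119, Gfap and Mbp, and above them for Drd1 and Rgs4.

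Inflammatory cytokines and NF-kB genes were lower in 23 of 28 tested members, with 0 higher (median -1.94). Il1b, the interleukin released by inflammasomes (chromosome 2), had 6.3 and 4.06 CPM in WT libraries and 0.0599 and 0.325 CPM in STING-KO (log2 change -4.74 ± 0.64, adjusted p = 0.000239). Tnf had 28 and 21 counts in WT and 0 in both STING-KO libraries, so it was at least 14.8-fold lower against a floor of 3 counts over the group (adjusted p = 0.00622). Myd88, the adaptor of Toll-like and interleukin-1 receptors, fell from 26.7 and 22.1 CPM to 3.12 and 5.08 CPM (log2 change -2.58 ± 0.23, adjusted p = 3.54e-05). Tnfrsf1b, the second TNF receptor, fell from 43.1 and 49.6 CPM to 4.38 and 11.1 CPM (log2 change -2.60 ± 0.29, adjusted p = 0.000133). Nfkb2 fell from 13.5 and 16.3 CPM to 2.52 and 4.49 CPM (log2 change -2.10 ± 0.26, adjusted p = 0.000188). With members at 0 in both STING-KO libraries set at their bound, the medians of this and of every other list were the same to 2 decimals.

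Chemokines and their receptors were lower in 21 of 25 (median -2.89). Ccl12, which attracts monocytes, went from 42.3 and 17.5 CPM to 0.779 and 2.54 CPM (log2 change -4.19 ± 0.55, adjusted p = 0.000298). Cxcl16 fell from 28.3 and 32.5 CPM to 2.4 and 5.86 CPM (log2 change -2.89 ± 0.32, adjusted p = 9.17e-05). The smallest adjusted p of the list was that of Ccl9, with 46.6 and 38.9 CPM in WT libraries and 5.51 and 7.74 CPM in STING-KO (log2 change -2.69 ± 0.24, adjusted p = 3.49e-05). Cx3cl1, the neuronal ligand of the microglial receptor CX3CR1, was the member called higher, with 191 and 242 CPM in WT libraries and 525 and 586 CPM in STING-KO (log2 change 1.36 ± 0.22, adjusted p = 0.000678); it is named for being the exception. Ccl2 stood at 4.67 and 4.39 CPM in WT libraries and 0 and 0.716 CPM in STING-KO (log2 change -3.69 ± 0.61, adjusted p = 0.000787).

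Inflammasome and cell death genes were lower in 12 of 16, with 0 higher (median -1.88). Casp1, the protease that cleaves interleukin-1 beta, had 11.96 and 11.1 CPM in WT libraries and 1.38 and 2.02 CPM in STING-KO (log2 change -2.77 ± 0.26, adjusted p = 4.83e-05). Gsdmd, whose fragment forms the pore of pyroptosis, had 30.5 and 26.04 CPM in WT libraries and 4.08 and 6.83 CPM in STING-KO (log2 change -2.38 ± 0.24, adjusted p = 5.53e-05), and the sensor Nlrp3 had 9.63 and 9.1 CPM in WT libraries and 1.26 and 2.93 CPM in STING-KO (log2 change -2.17 ± 0.32, adjusted p = 0.000482). Casp8, the initiator protease of extrinsic apoptosis, fell from 27.7 and 23.2 CPM to 6.23 and 7.48 CPM (log2 change -1.89 ± 0.18, adjusted p = 4.64e-05).

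Complement genes were lower in 14 of 19 (median -2.29). C3, the central component (chromosome 17), had 177 and 91.9 CPM in WT libraries and 4.25 and 11.2 CPM in STING-KO (log2 change -4.13 ± 0.54, adjusted p = 0.000286). C1qa, a chain of the C1q that microglia make, had 349 and 393 CPM in WT libraries and 25.3 and 85.03 CPM in STING-KO (log2 change -2.75 ± 0.46, adjusted p = 0.00106); its STING-KO libraries stood apart from each other but below both WT libraries. Itgam, the CD11b chain of a complement receptor, fell from 99.5 and 83.3 CPM to 8.75 and 18.5 CPM (log2 change -2.75 ± 0.27, adjusted p = 5.42e-05). All 18 genes of MHC class I and the immunoproteasome were lower (median -2.52). B2m, the light chain of class I molecules, had 1158 and 1084 CPM in WT libraries and 112 and 297 CPM in STING-KO (log2 change -2.46 ± 0.36, adjusted p = 0.000505). Psmb8, a proteasome subunit induced by interferon, had 28.5 and 20.9 CPM in WT libraries and 1.62 and 3.45 CPM in STING-KO (log2 change -3.29 ± 0.33, adjusted p = 5.54e-05). Of 12 genes of MHC class II presentation 9 were lower (median -2.45), 5 without STING-KO replicate 1. Ifi30, the thiol reductase of antigen processing, fell from 32.5 and 27.03 CPM to 3.48 and 3.9 CPM (log2 change -3.01 ± 0.24, adjusted p = 2.35e-05). H2-Ab1 fell from 28.5 and 33.4 CPM to 1.26 and 3.84 CPM (log2 change -3.62 ± 0.58, adjusted p = 0.000858).

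Markers of microglia were lower along with these genes. All 20 homeostatic microglia genes were lower (median -1.61), and their summed level was 3270 and 3407 CPM in WT and 816 and 1404 CPM in STING-KO; none of them was at 0 in any of the 4 libraries. In bulk tissue, fewer cells of a type and less RNA per cell cannot be told apart. P2ry12, the purinergic receptor of resting microglia (chromosome 3), had 120.1 and 119 CPM in WT libraries and 61.3 and 69.3 CPM in STING-KO (log2 change -0.87 ± 0.17, adjusted p = 0.00208), the smallest decrease of the list. Tmem119 had 87.5 and 78.9 CPM in WT libraries and 11.6 and 27.97 CPM in STING-KO (log2 change -2.08 ± 0.30, adjusted p = 0.000453). P2ry6, a receptor that triggers phagocytosis, had 36.2 and 34.05 CPM in WT libraries and 2.28 and 6.96 CPM in STING-KO (log2 change -2.94 ± 0.34, adjusted p = 0.000139). The change of Tmem173, -2.51, lay inside the range of this list, -2.94 to -0.87, and below its median of -1.61. What part the microglial markers have in the lower values of Tmem173 and of the interferon, complement and MHC genes was not tested.

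Genes of disease-associated microglia, the state that phagocytes take around damage, were lower in 28 of 30, with a median of -2.55. Spp1, the secreted phosphoprotein osteopontin (ENSMUSG00000029304; chromosome 5, 104435118 to 104441050, plus strand), had 691 and 1084 CPM in WT libraries and 7.25 and 13.4 CPM in STING-KO (log2 change -6.43 ± 0.57, adjusted p = 4.64e-05), the largest decrease of the list. Lgals3, the galectin of activated phagocytes, had 41.1 and 35.3 CPM in WT libraries and 2.16 and 2.93 CPM in STING-KO (log2 change -3.91 ± 0.40, adjusted p = 8.67e-05). Axl, a receptor for dying cells, had 186 and 190.3 CPM in WT libraries and 61.3 and 75.1 CPM in STING-KO (log2 change -1.47 ± 0.17, adjusted p = 0.000128). Trem2, the lipid-sensing receptor, had 338 and 309 CPM in WT, but 13.6 and 99.7 CPM in STING-KO, where the replicates were far apart (log2 change -2.52 ± 0.60, adjusted p = 0.00856). Its call was lost without a filter (adjusted p = 0.0846), in the 14-day libraries alone (0.0657) and in the 4 libraries alone (0.0839). Timp2 and Ank, the members with no call, had log2 changes of -0.41 and -0.14.

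Genes of phagocytosis, lysosome and lipid handling were lower in 34 of 37 (median -1.68). Msr1, a scavenger receptor for modified lipoproteins and debris, went from 19.6 and 16.6 CPM to 0.539 and 1.17 CPM (log2 change -4.41 ± 0.31, adjusted p = 1.82e-05). Fcer1g, the signalling chain of Fc receptors, fell from 159 and 144 CPM to 11.7 and 21.01 CPM (log2 change -3.22 ± 0.24, adjusted p = 1.95e-05). Plin2, a lipid droplet coat protein, fell from 55.3 and 84.9 CPM to 9.77 and 11.7 CPM (log2 change -2.71 ± 0.28, adjusted p = 7.28e-05). Cd68, a lysosomal membrane protein of phagocytes, stood at 165 and 158 CPM in WT libraries and 14.8 and 39.2 CPM in STING-KO (log2 change -2.58 ± 0.34, adjusted p = 0.000319). Atp6v1b2, a proton pump subunit that neurons also express, was the member called higher (0.72), and it was not called without WT replicate 1.

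Most tested genes in the lists of monocytes and macrophages, of neutrophils and of T, NK and B cells were lower in STING-KO. Of 25 tested monocyte and macrophage genes 19 were lower (median -2.77) and Cd163, a haemoglobin scavenger receptor, was higher (2.12), a call lost without each of the 4 libraries in turn and without a filter. Ly6c2, a marker of inflammatory monocytes, had 14.9 and 10.1 CPM in WT libraries and 0.0599 and 0.52 CPM in STING-KO (log2 change -5.44 ± 0.77, adjusted p = 0.000339). Ccr2, their chemokine receptor, had 9.69 and 12.6 CPM in WT libraries and 0.18 and 1.11 CPM in STING-KO (log2 change -4.14 ± 0.58, adjusted p = 0.000332). Of 14 neutrophil genes 7 could be tested and 5 were lower, 3 without WT replicate 1 and 3 without STING-KO replicate 2. Lcn2, a siderophore-binding protein of neutrophils and reactive astrocytes, had 247 and 21.7 CPM in WT libraries and 1.08 and 2.86 CPM in STING-KO (log2 change -6.11 ± 1.16, adjusted p = 0.00234) with WT libraries that were themselves far apart.

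Among 28 tested genes of T, NK and B cells 20 were lower (median -2.57), 9 without STING-KO replicate 1 and 13 without WT replicate 1. The granule gene Nkg7 had 63 and 47 counts in WT and 0 and 1 in STING-KO, a ratio of 99.7 with a 95% counting interval from 17.5 to 3970 (adjusted p = 0.000128). Prf1, the perforin of cytotoxic cells, had 20 and 21 counts in WT and 0 in STING-KO, at least 12.4-fold lower against the floor of 3 counts over the group (adjusted p = 0.00144). Cd4, a surface receptor of helper T cells, was the member called higher (1.86). Intervals and floors here cover counting error only.

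Reactive astrocyte genes were lower in 23 of 26, with 0 higher (median -1.80; 15 lower without WT replicate 1). Gfap, the intermediate filament of reactive astrocytes (ENSMUSG00000020932; chromosome 11, 102887336 to 102900912, minus strand), had 5013 and 2278 CPM in WT libraries and 288 and 740.4 CPM in STING-KO (log2 change -2.83 ± 0.51, adjusted p = 0.00182). Within each group the replicates of Gfap differed more than 2-fold, yet the groups did not overlap. Vim had 1343 and 665 CPM in WT libraries and 132 and 202 CPM in STING-KO (log2 change -2.59 ± 0.39, adjusted p = 0.000625). S1pr3, a sphingosine-1-phosphate receptor, had 78.3 and 52.2 CPM in WT libraries and 9.23 and 13.01 CPM in STING-KO (log2 change -2.55 ± 0.30, adjusted p = 0.000154). Homeostatic astrocyte genes were lower in 8 of 19 and higher in 1 (median -0.56), and only 4 were lower without STING-KO replicate 1, 3 without WT replicate 1 and 4 in the 4 libraries alone. The glutamate transporter Slc1a2 stood at 2994 and 3732 CPM in WT libraries and 4548 and 3903 CPM in STING-KO (log2 change 0.33 ± 0.25, adjusted p = 0.332), while the water channel Aqp4, which reactive astrocytes also raise, fell from 746 and 548 CPM to 166 and 219 CPM (log2 change -1.75 ± 0.23, adjusted p = 0.000241).

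Fibroblast and scar matrix genes were lower in 32 of 41 (median -1.75), but in 14 without STING-KO replicate 1 and in 20 without WT replicate 2. Thbs1, the matrix glycoprotein thrombospondin 1, went from 30.1 and 22.7 CPM to 1.8 and 2.41 CPM (log2 change -3.65 ± 0.35, adjusted p = 5.47e-05). Col5a1, a fibrillar collagen chain, fell from 28.7 and 37.6 CPM to 1.98 and 4.16 CPM (log2 change -3.44 ± 0.48, adjusted p = 0.000392). Cell cycle genes were lower in 28 of 48, with 0 higher (median -1.04; 16 without WT replicate 1). Mki67 had 37.9 and 33.1 CPM in WT libraries and 14.9 and 14.8 CPM in STING-KO (log2 change -1.26 ± 0.21, adjusted p = 0.00106). Bub1b, a spindle checkpoint kinase, had 9.92 and 11.5 CPM in WT libraries and 1.92 and 1.95 CPM in STING-KO (log2 change -2.46 ± 0.30, adjusted p = 0.000154).

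Of 22 endothelial genes 7 were lower (median -0.56), against 17.4% lower among all genes, but 2 without STING-KO replicate 1, 2 without WT replicate 1 and 4 without a filter or in the 4 libraries alone. Vcam1 and Icam1, the adhesion molecules to which leukocytes bind, were among them. Vcam1 had 113 and 85.97 CPM in WT libraries and 49.5 and 59.01 CPM in STING-KO (log2 change -0.87 ± 0.17, adjusted p = 0.00256). Icam1 had 21.1 and 17.7 CPM in WT libraries and 2.16 and 7.74 CPM in STING-KO (log2 change -1.98 ± 0.42, adjusted p = 0.00445). Of 14 genes of pericytes and smooth muscle 1 was lower, the peptidase Anpep (-1.97), with a median of -0.04; the count was 3 without STING-KO replicate 2 and 2 with DESeq2, library totals alone or the 14-day libraries alone.

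Oligodendrocyte genes were lower too. Of 20 myelin genes 12 were lower and 0 higher (median -0.91), 4 without STING-KO replicate 1, 7 without WT replicate 1 and 5 without WT replicate 2. Mbp, myelin basic protein (chromosome 18), had 9495 and 8124 CPM in WT libraries and 1868 and 2702 CPM in STING-KO (log2 change -1.95 ± 0.28, adjusted p = 0.00044). Both STING-KO libraries lay far below both WT libraries. Apod, an apolipoprotein of oligodendrocytes and astrocytes, fell from 1251 and 814 CPM to 211 and 285 CPM (log2 change -2.06 ± 0.37, adjusted p = 0.00181). Of 13 precursor genes 8 were lower (median -0.93), 1 without STING-KO replicate 1, 5 without WT replicate 1, 3 without WT replicate 2 and 5 without a filter or in the 4 libraries alone; Bcas1, which marks cells that begin to myelinate, had 658 and 419.6 CPM in WT libraries and 128 and 152 CPM in STING-KO (log2 change -1.94 ± 0.26, adjusted p = 0.000286).

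**Figure D3:**
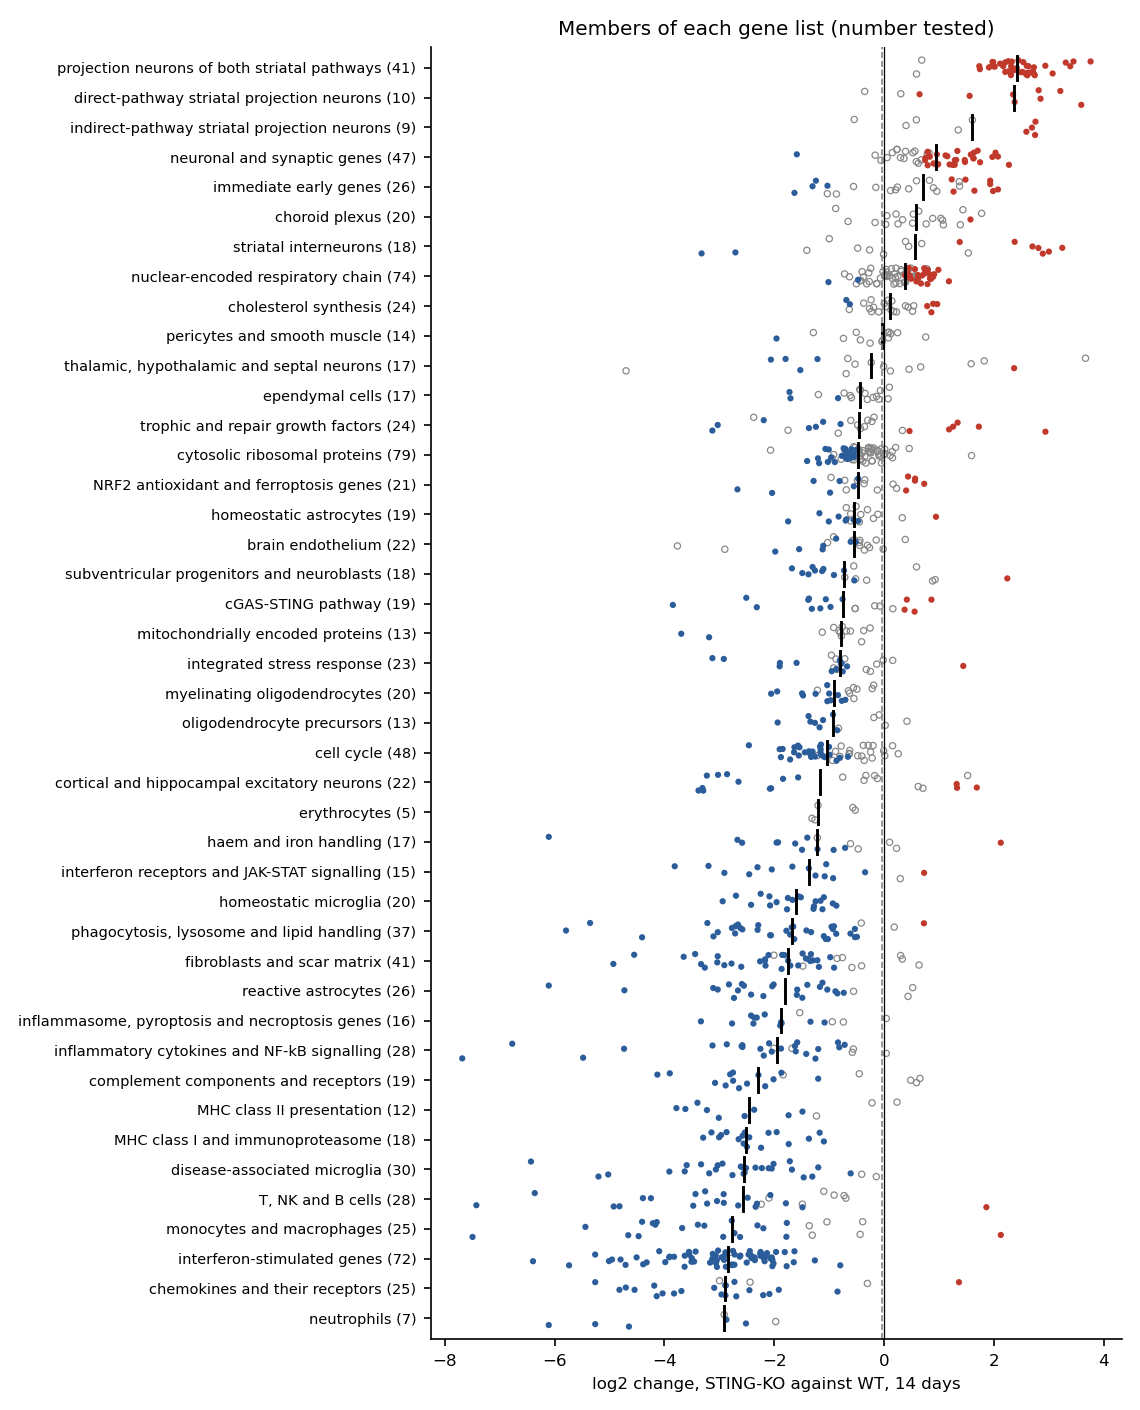
Log2 change of STING-KO over WT at 14 days (x axis) for every tested member of 43 gene lists (y axis, number tested in brackets). Filled points were called (red higher, blue lower), open points were not, black bars are list medians and the dashed line is the median of all tested genes, -0.03; striatal projection neuron lists lie at the top with medians of 1.61 to 2.41 and immune lists at the bottom.

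Genes of striatal projection neurons were higher in STING-KO. Of 41 genes shared by both pathways 39 were higher and 0 lower, against 16.5% higher among all genes, with a median of 2.41 and a range from 0.59 to 3.76. Their summed level was 4146 and 4062 CPM in WT and 21350 and 22990 CPM in STING-KO, and none was at 0 in any library. Rgs4, a regulator of G protein signalling (ENSMUSG00000038530; chromosome 1, 169741477 to 169747642, minus strand), had 86.1 and 98.4 CPM in WT libraries and 555 and 585 CPM in STING-KO (log2 change 2.63 ± 0.16, adjusted p = 1.35e-05), the smallest adjusted p of the list. Foxp2, a transcription factor of these neurons, had 26.6 and 26.1 CPM in WT libraries and 145 and 119 CPM in STING-KO (log2 change 2.32 ± 0.17, adjusted p = 1.82e-05). Ppp1r1b, the dopamine-regulated phosphatase inhibitor DARPP-32, had 126 and 103 CPM in WT libraries and 390.5 and 668 CPM in STING-KO (log2 change 2.21 ± 0.45, adjusted p = 0.00352). In each of them both STING-KO libraries lay above both WT libraries. The 2 members with no call were Dlx6os1 (0.59) and the dopamine receptor Drd3 (0.68).

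Both pathways were among the higher genes. Of 10 direct-pathway genes 8 were higher (median 2.36). Drd1 (ENSMUSG00000021478; chromosome 13, 54051183 to 54055705, minus strand) had 41.96 and 33.9 CPM in WT libraries and 375 and 325 CPM in STING-KO (log2 change 3.21 ± 0.64, adjusted p = 0.00324). Tac1, the precursor of substance P, had 46.7 and 40.9 CPM in WT libraries and 395 and 235 CPM in STING-KO (log2 change 2.85 ± 0.50, adjusted p = 0.00155). Pdyn, the precursor of dynorphin, had 36.8 and 35.97 CPM in WT libraries and 218 and 159.8 CPM in STING-KO (log2 change 2.38 ± 0.38, adjusted p = 0.000849). The groups were apart in all 3 genes. Of 9 tested indirect-pathway genes 4 were higher (median 1.61), 2 without WT replicate 2 and 1 without a filter. Drd2 had 38.4 and 25.6 CPM in WT libraries and 200 and 231 CPM in STING-KO (log2 change 2.75 ± 0.66, adjusted p = 0.00828), with adjusted p = 0.0663 without WT replicate 2 and 0.0812 without a filter. Penk, the enkephalin precursor, had 132 and 108 CPM in WT libraries and 781 and 832 CPM in STING-KO (log2 change 2.75 ± 0.58, adjusted p = 0.00447; 0.0571 without a filter).

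Interneuron genes were split. Of 18 tested, 7 were higher, 2 lower and 9 not called (median 0.57). Among the 7, picked out after their values were seen, were genes that cholinergic interneurons use, namely the choline acetyltransferase Chat, the choline transporter Slc5a7, the vesicular acetylcholine transporter Slc18a3 and the transcription factor Lhx8. Chat had 3.09 and 2.96 CPM in WT libraries and 16.4 and 26.1 CPM in STING-KO (log2 change 2.81 ± 0.48, adjusted p = 0.00124). Slc5a7 had 9.22 and 8.66 CPM in WT libraries and 61.97 and 70.5 CPM in STING-KO (log2 change 2.89 ± 0.33, adjusted p = 0.000127). Tacr1, the substance P receptor, stood at 5.25 and 4.61 CPM in WT libraries and 39.5 and 39.4 CPM in STING-KO (log2 change 2.999 ± 0.26, adjusted p = 3.49e-05). Pvalb, a calcium-binding protein of another interneuron class, was not called, with 4.32 and 10.6 CPM in WT libraries and 3.54 and 2.08 CPM in STING-KO (adjusted p = 0.0577 by edgeR and 0.0104 by DESeq2). The 2 lower genes, Cck and Vip, are neuropeptides that cortical neurons also make; Cck had 28.8 and 47.5 CPM in WT libraries and 2.16 and 5.53 CPM in STING-KO (log2 change -3.32 ± 0.41, adjusted p = 0.000227).

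Genes of cortical and hippocampal excitatory neurons were lower more often than higher. Of 22 markers 11 were lower and 3 higher (median -1.16); without STING-KO replicate 1 it was 6 and 1. Their summed level was 721 and 1146 CPM in WT and 530.2 and 622 CPM in STING-KO, with none at 0. Without Slc17a7 and Neurod2 it was 504 and 676 CPM in WT libraries and 519 and 567 CPM in STING-KO, where the groups overlap. The 3 called higher, named after their values were seen, were Lamp5 (1.69), Wfs1 (1.32) and Rspo1 (1.33). The glutamate transporter Slc17a7 had 199 and 438 CPM in WT libraries and 10.3 and 51.1 CPM in STING-KO (log2 change -3.38 ± 0.67, adjusted p = 0.00305). Neurod2, a transcription factor of cortical pyramidal neurons, had 18.6 and 30.9 CPM in WT libraries and 0.899 and 4.23 CPM in STING-KO (log2 change -3.29 ± 0.51, adjusted p = 0.000704). WT replicate 2 was the highest of the 4 libraries for both. Of 17 tested thalamic, hypothalamic and septal markers 4 were lower and 1 higher (median -0.23; 2 higher without STING-KO replicate 1), and the 1 higher was Calb1, a calcium-binding protein that striatal projection neurons express (67 and 62.9 CPM in WT libraries, 345 and 325 CPM in STING-KO; log2 change 2.37 ± 0.23, adjusted p = 4.86e-05). Among all tested genes 17.4% were lower and 16.5% higher, and the share of these 17 markers called lower lay near the first value. Whether the dissected tissue differed between groups was not tested.

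General neuronal and synaptic genes were higher in 30 of 47 and lower in 1, Stx1a (-1.59), with a median of 0.95; 19 were higher without WT replicate 1, and Stx1a was not called when STING-KO replicate 1, WT replicate 1 or WT replicate 2 was left out, by DESeq2 or without a filter. Gad1, the GABA-synthesising enzyme, had 148 and 194 CPM in WT libraries and 706 and 689 CPM in STING-KO (log2 change 2.03 ± 0.19, adjusted p = 4.92e-05), and the sodium channel Scn2a had 102 and 125 CPM in WT libraries and 336 and 340 CPM in STING-KO (log2 change 1.58 ± 0.20, adjusted p = 0.000227). Of 26 immediate early genes 8 were higher and 4 lower (median 0.71), with 3 higher without STING-KO replicate 1 and 3 without WT replicate 1. Among the higher was the transcription factor Egr3, with 46.1 and 85.9 CPM in WT libraries and 293 and 229 CPM in STING-KO (log2 change 1.98 ± 0.35, adjusted p = 0.00159). Jun, part of the factor AP-1, was on the lower side, with 60.8 and 62.3 CPM in WT libraries and 17.9 and 32.1 CPM in STING-KO (log2 change -1.30 ± 0.24, adjusted p = 0.00158).

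**Figure D4:**
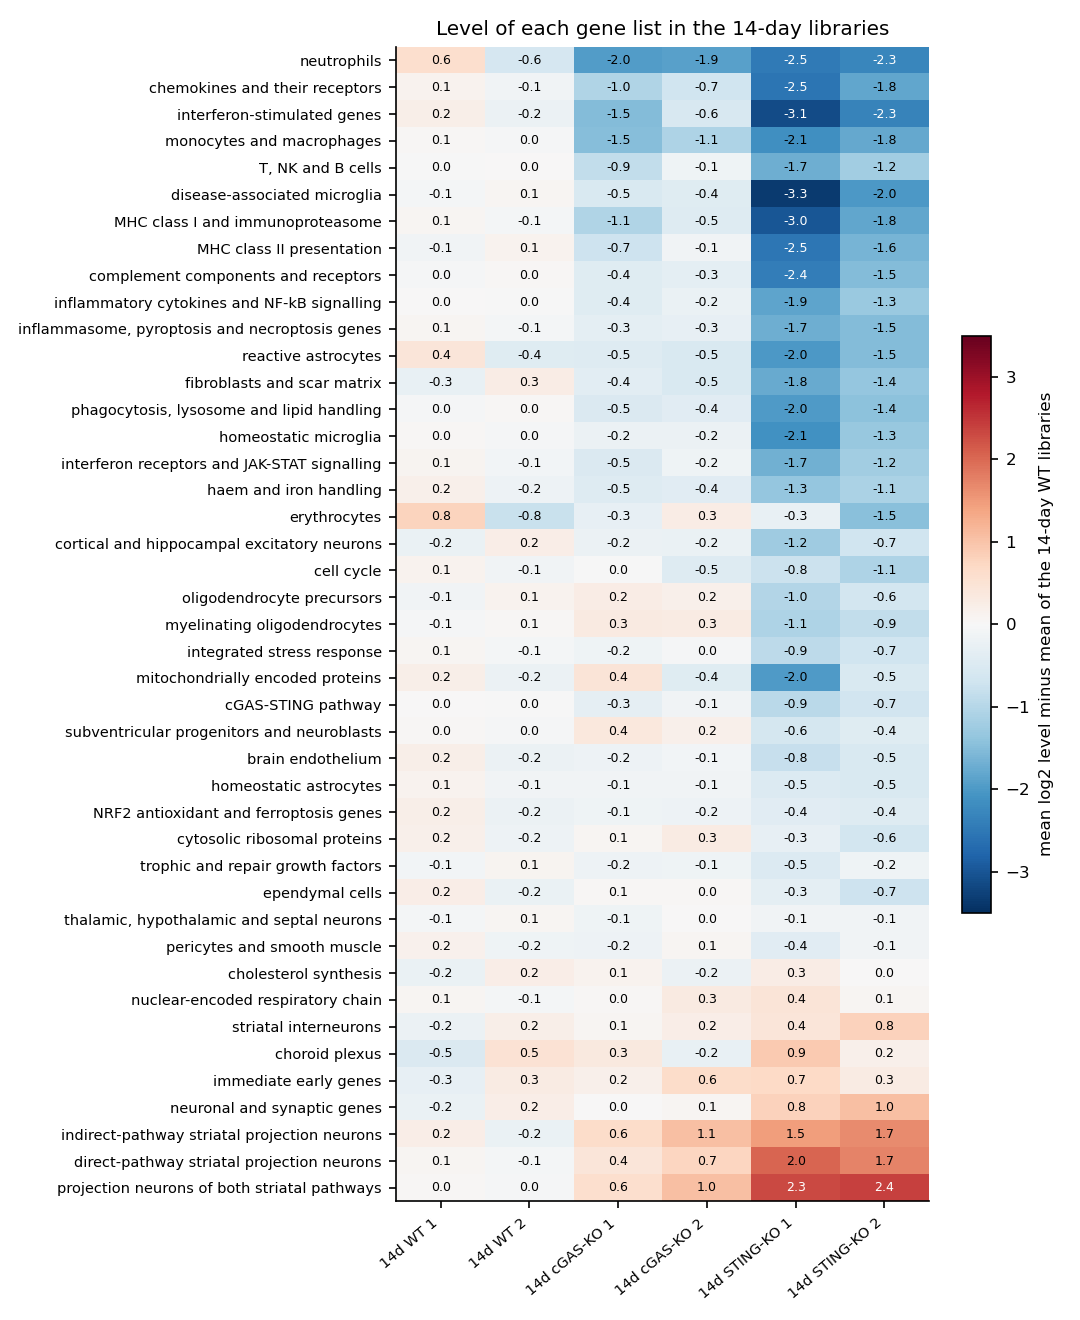
Mean log2 level of each gene list in the 6 libraries of 14 days (columns), given as the difference from the mean of both WT libraries (colour and number; red higher, blue lower). The STING-KO columns are blue for the immune lists, among them interferon-stimulated and disease-associated microglia genes, and red for the striatal projection neuron lists, replicate 1 lies further from WT than replicate 2 in the immune lists, and for these lists the cGAS-KO columns lie between WT and STING-KO.

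Integrated stress response genes were lower in 12 of 23 and higher in 1 (median -0.81): Atf3, a stress-induced factor, fell from 22.4 and 26.5 CPM to 2.28 and 4.23 CPM (log2 change -2.92 ± 0.42, adjusted p = 0.000482). Asns, asparagine synthetase, rose from 32.5 and 32.3 CPM to 95.2 and 80.4 CPM (log2 change 1.44 ± 0.16, adjusted p = 0.000112). Haem and iron genes were lower in 11 of 17 and higher in 1, Cd163 (median -1.22). Among the lower was Hmox1, the haem-degrading enzyme, with 32.3 and 25.7 CPM in WT libraries and 3.48 and 5.66 CPM in STING-KO (log2 change -2.67 ± 0.27, adjusted p = 6.49e-05). Among all tested genes 16.5% were higher, and the share of cholesterol synthesis genes called higher lay near that. Cholesterol synthesis genes were higher in 4 and lower in 2 of 24, with counts of 0 to 7 and 0 to 3 over the settings tried, and antioxidant genes under NRF2 higher in 5 and lower in 7 of 21, with counts of 0 to 5 and 4 to 8. Trophic factor genes were split, with 7 lower (4 without STING-KO replicate 1) and 6 higher of 24 (median -0.46). Igf1, a growth factor that microglia make after injury, fell from 57.3 and 69.2 CPM to 2.94 and 12.7 CPM (log2 change -3.03 ± 0.45, adjusted p = 0.00054). Gdnf, a factor for dopamine neurons that striatal interneurons make, rose from 0.525 and 1.7 CPM to 10.01 and 7.29 CPM (log2 change 2.94 ± 0.45, adjusted p = 0.000474). Of 18 genes of the subventricular zone and its neuroblasts 10 were lower and 1 higher (median -0.72), and 6 were lower without any given one of the 4 libraries; Dlx2 had 24.1 and 17.8 CPM in WT libraries and 9.53 and 9.56 CPM in STING-KO (log2 change -1.13 ± 0.21, adjusted p = 0.00158).

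Lists that speak to tissue makeup and RNA quality were also read. Among all tested genes 16.5% were higher and 17.4% lower. The shares of ependymal and mitochondrially encoded genes called lower lay near the second value. No erythrocyte gene was called by edgeR or DESeq2 (0 of 5; 0 at an unadjusted p below 0.05), but 3 were lower without WT replicate 2. Of 20 choroid plexus genes 1 was higher (median 0.58; 4 without WT replicate 2, and 0 without WT replicate 1, without STING-KO replicate 1 or without a filter). Of 17 ependymal genes 3 were lower (median -0.43). Cytosolic ribosomal protein genes were lower in 25 of 79 (median -0.47), but in 5 without WT replicate 1, 16 in the 14-day libraries alone and 13 in the 4 libraries alone. Of 13 mitochondrially encoded genes 2 were lower (median -0.78), 11 without STING-KO replicate 2 and 5 by DESeq2; both, mt-Nd3 and mt-Co3, have copies in the nuclear genome that may share their reads. Nuclear genes of the respiratory chain were higher in 26 of 74 and lower in 2 (0 to 5 over the settings tried; median 0.38); 14 were higher without STING-KO replicate 1, 16 without WT replicate 1, 12 without WT replicate 2, 17 in the 14-day libraries alone and 10 in the 4 libraries alone.

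Beyond the lists, the 12 largest rises and falls among protein-coding genes with a mean of at least 1 on the log2 CPM scale and separated groups were examined. The largest rises included Scn4b, a sodium channel subunit of striatal neurons, with 116 and 107 CPM in WT libraries and 1009 and 1426 CPM in STING-KO (log2 change 3.45 ± 0.41, adjusted p = 0.000192). Htr1b, a serotonin receptor, had 9.05 and 12.6 CPM in WT libraries and 133 and 94.5 CPM in STING-KO (log2 change 3.39 ± 0.32, adjusted p = 4.89e-05). Slc35d3, which supports surface delivery of Drd1, had 5.02 and 6.09 CPM in WT libraries and 73 and 60.8 CPM in STING-KO (log2 change 3.59 ± 0.34, adjusted p = 4.83e-05). Ano2, a calcium-activated chloride channel, went from 3.21 and 2.3 CPM to 29.7 and 32.3 CPM (log2 change 3.49 ± 0.33, adjusted p = 4.92e-05). Ido1, a tryptophan-degrading enzyme known as interferon-induced, was on the higher side here, with 0.875 and 0.603 CPM in WT libraries and 11.3 and 8.78 CPM in STING-KO (log2 change 3.76 ± 0.53, adjusted p = 0.000332), and it stands in the striatal neuron list. Among the falls, Ifi211, of the Ifi200 family, had 172 and 197 counts in WT and 0 and 3 in STING-KO, a ratio of 112 with a 95% counting interval from 37.9 to 543 (adjusted p = 0.000124). Slfn4, a Schlafen gene of monocytes and neutrophils, went from 31.6 and 11.6 CPM to 0 and 0.52 CPM (log2 change -6.39 ± 0.75, adjusted p = 8.05e-05), and Slamf7, a receptor of NK and other leukocytes, had 36 and 135 counts in WT and 0 and 2 in STING-KO (adjusted p = 0.000405).

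The 14-day cGAS-KO libraries allow the same genes to be set beside the other labelled knockout. Cgas, the gene which that label names, had 4.09 and 6.145 CPM there. It was not called by edgeR against WT (log2 change -0.98 ± 0.28, adjusted p = 0.27) or between the knockouts (-0.335 ± 0.31, adjusted p = 0.431). At 7 days it had 5.545 and 5.65 CPM in cGAS-KO and 3.25 and 2.96 CPM in WT, against the label. Whether the cGAS-KO labels are as given was not tested. Both knockout comparisons use the same WT libraries, so their values are given side by side and the knockouts are compared directly. Against WT, 6 genes were called in cGAS-KO, where STING-KO had 6717. At an unadjusted p below 0.05 by edgeR, 1084 of all 19822 genes were higher in cGAS-KO than in WT and 1101 were lower. Directly, 7112 genes were called between STING-KO and cGAS-KO (35.9%), 3500 higher in STING-KO (17.7%) and 3612 lower (18.2%). The total was 4632 without cGAS-KO replicate 2 (2174 higher), 4728 without STING-KO replicate 1 (2225 lower) and 4614 in the 4 libraries alone (2270 higher and 2344 lower). Of the 72 interferon-stimulated genes 61 were lower in STING-KO than in cGAS-KO (median -1.94), 35 without STING-KO replicate 1 and 39 without cGAS-KO replicate 2; in cGAS-KO against WT 1 was lower, 48 at an unadjusted p below 0.05, with a median of -0.89. Ifit1 had 15.7 and 47.98 CPM in cGAS-KO, and STING-KO differed from it by -2.32 ± 0.51 on the log2 scale (adjusted p = 0.00529); cGAS-KO against WT stood at -1.18 ± 0.45 (adjusted p = 0.383).

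All 20 homeostatic microglia genes were lower in STING-KO than in cGAS-KO (median -1.35), where cGAS-KO against WT had 0 called by edgeR, 1 lower at an unadjusted p below 0.05, and a median of -0.19. At that threshold 1101 of all 19822 genes were lower in cGAS-KO than in WT. Of 30 disease-associated genes 26 were lower (median -2.29; cGAS-KO against WT -0.24, with 0 called by edgeR and 8 lower at an unadjusted p below 0.05). Spp1 had 92.3 and 96.95 CPM in cGAS-KO (log2 change -3.20 ± 0.51, adjusted p = 0.000985 for STING-KO against cGAS-KO), between the other groups. Of the leukocyte lists, against 18.2% lower among all genes, 8 of 25 monocyte genes were lower in STING-KO than in cGAS-KO (median -0.99; 3 without STING-KO replicate 1 and 5 without cGAS-KO replicate 2) and 1 of 7 neutrophil genes (median 0.23). Of 28 genes of T, NK and B cells 12 were lower (median -1.92), with 3 when STING-KO replicate 1 and 5 when cGAS-KO replicate 2 was left out, and 7 without a filter, in the 14-day libraries alone or in the 4 libraries alone. In cGAS-KO against WT, edgeR called 3 monocyte genes lower, 17 at an unadjusted p below 0.05 (median -1.80). Of the 7 neutrophil genes 1 was called lower, 6 at that threshold (median -3.10). For T, NK and B cells 0 were called, with 11 lower and 1 higher at that threshold (median -0.70). For Clec4d, a lectin of neutrophils and monocytes, WT libraries stood at 3.5 and 1.59 CPM, cGAS-KO at 0.133 and 0.0945 CPM and STING-KO at 0.12 and 0.0651 CPM. No knockout library held more than 3 counts of it, so no difference between the knockouts is given.

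Striatal projection neuron genes were higher in STING-KO than in cGAS-KO in 33 of 41 (median 1.62; 21 without cGAS-KO replicate 1), and cGAS-KO against WT had 0 called by edgeR, 26 higher at an unadjusted p below 0.05, and a median of 0.89. At that threshold 1084 of all 19822 genes were higher in cGAS-KO than in WT. These 41 genes are those shared by both pathways. Of 10 direct-pathway genes 8 were higher in STING-KO than in cGAS-KO (median 1.47, 4 without a filter). Of 9 indirect-pathway genes 1 was higher (median 0.92, 0 by DESeq2 and 5 in the 14-day libraries alone), against 17.7% of all genes. By edgeR, Ppp1r1b (0.49, adjusted p = 0.402), Drd2 (1.38, 0.107) and Penk (1.20, 0.113) were not called between the knockouts. Rgs4 had 90.6 and 115 CPM in cGAS-KO (log2 change 2.47 ± 0.16, adjusted p = 4.92e-05 for STING-KO against cGAS-KO). Myelin genes were lower in 16 of 20 (median -1.23; 10 without STING-KO replicate 1), with a median of 0.20 in cGAS-KO against WT, 0 called by edgeR and 2 higher at an unadjusted p below 0.05. Mbp had 12620 and 16800 CPM in cGAS-KO, above both other groups (log2 change -2.69 ± 0.29, adjusted p = 0.000164 for STING-KO against cGAS-KO). Among the largest differences between the knockouts was Gpr101, an orphan receptor of the brain, with 0.667 and 1.94 CPM in cGAS-KO, 11.2 and 11.7 CPM in STING-KO and 1.28 and 1.48 CPM in WT (log2 change 3.14 ± 0.65, adjusted p = 0.00388).

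The effect of the STING-KO label was not the same at the other time point, where Tmem173 goes against that label. For 10292 genes (51.9%) the STING-KO difference from WT differed between 14 and 7 days, 4817 with a higher value at 14 days (24.3%) and 5475 with a lower one (27.6%). Of the 6717 genes called at 14 days and the 9694 called at 7 days, 4371 were called on both days in opposite directions, 65.1% of the first and 45.1% of the second; the comparisons share no library. Interferon-stimulated genes had a median of -2.84 at 14 days and 2.56 at 7 days, disease-associated microglia genes -2.55 and 5.66, and synaptic genes 0.95 and -1.93. Gfap, for instance, had 518 and 339 CPM in 7-day WT and 2669 and 5335 CPM where the 7-day label was STING-KO, the reverse of the 14-day order. The 7-day WT libraries stood apart from all others on the second principal component, and without that group the 14-day comparison called 6022 genes, 2866 higher and 3156 lower.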

How the data were processed

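RNA of 12 striatal libraries was sequenced. The deposited values are whole-number counts per Ensembl gene; the authors used HISAT2, the mm10 build and featureCounts, per the submitters' processing notes, with versions, annotation and strand setting not given in the sources used here, so genes that overlap or have near-identical copies may share reads. Symbols came from the GENCODE M21 primary assembly annotation (GRCm38), which matched 54495 of 54532 IDs. Genes that passed edgeR's filterByExpr (at least 10 counts in a group's number of libraries, 15 in all) were scaled by TMM and fitted with edgeR 4.0.16 (quasi-likelihood, robust, R 4.3.3) over all 6 groups, with 6 residual degrees of freedom. P-values were adjusted by Benjamini-Hochberg over 19822 genes. The standard error is the log2 change divided by the square root of F. The fit was tested on simulated counts. The 2 libraries of each group differed beyond counting noise. DESeq2 1.42.0 and the other alternatives are in the closing section. The members, gene lists and alternatives were chosen with earlier results of these data known. Named genes were the first 2 tested and up to 4 called members of each list, the 12 largest rises and falls, 6 of each against cGAS-KO and between days, and Tmem173 and Cgas; members called against their list, members with no call and the promoter genes were chosen after their values were seen. Motifs and sequences used RefSeq GRCm38.p6 promoters.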

Additional observations from a re-analysis of the deposited data

Results flagged for a closer look

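The following results differed between the time points by a test of the difference itself, edgeR's quasi-likelihood interaction of the STING-KO label with time. The effect of the label differed for 10292 genes. All of these differences use the 7-day WT libraries, which stand apart from the others, and the 7-day libraries labelled STING-KO, in which Tmem173 was not lower, against the label; whether those labels are as given was not tested. Each value is the log2 change at 14 days minus that at 7 days. It was -5.53 for Tmem173 and -3.25 for Cgas.

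Among called protein-coding genes with a mean of at least 1 on the log2 CPM scale, the largest negative differences included -20.24 for Saa3, an acute phase protein, -18.18 for the proton pump subunit Atp6v0d2, -16.50 for the matrix protease Mmp3, -16.27 for Spp1 and -16.25 for the macrophage protein Cd5l. Tnf stood at -15.59. The largest positive ones under the same limits were 6.81 for Nkain3, 6.68 for Fibcd1, 6.63 for the nuclear receptor Nr4a3, 6.40 for the ephrin receptor Epha6, 6.14 for the exchanger Slc9a2 and 6.00 for the neuropeptide Y receptor Npy2r. Fitted differences of genes with a group at 0 depend on the prior count. This holds for Saa3 and Tnf, which had 0 counts in both STING-KO libraries of the later time. There, against a floor of 3 counts over the group, Saa3 was at least 44.4-fold lower than in WT and Tnf at least 14.8-fold lower. The sizes of -20.24 and -15.59 are therefore not measured values. Groups of 2 libraries were too small to look for single libraries that stand apart.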

How the results depend on the processing

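Leaving out 1 library moved the 6717 genes called against WT to between 4203 and 6869 (higher 1904 to 3286, lower 2177 to 3583), the 7112 called against cGAS-KO to between 4632 and 7290 (higher 2174 to 3551, lower 2225 to 3739) and the 10292 that differed between days to between 8464 and 10309. In the compared libraries alone, the counts were 4271 against WT (1975 higher, 2296 lower) and 4614 against cGAS-KO (2270 higher, 2344 lower), with fewer libraries to estimate the spread. DESeq2 called 6851 genes against WT, and a fit without a filter 5956. Library totals alone called 6557, of which 41.2% were higher in place of 48.6%, with a median change of all genes of -0.115. Same-numbered replicates did not deviate together (correlations from -0.092 to 0.196), so the numbers are not taken to pair libraries; with the replicate number as a block 6751 genes were called against WT, 7188 against cGAS-KO and 10304 between days. Of 117 genes named by rule, 114 were called against WT, 105 of them under each setting tried; 7 lost the call when 1 library was left out and 7 under another setting. With 2 libraries a group, a fit that leaves 1 assumes that it varies like the other groups.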

Other observations

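Long intergenic noncoding RNAs were called in both directions: of 916 tested, 106 were higher in STING-KO and 67 lower. Both are smaller shares than the 16.5% higher and 17.4% lower among all tested genes. The examples were chosen after their values were seen. AI427809 had 4.14 and 3.95 CPM in WT and 0 and 0.586 CPM in STING-KO (log2 change -3.81 ± 0.60, adjusted p = 0.000495 by edgeR), so both STING-KO libraries lay below WT. On the higher side, 4833415N18Rik had 2.16 and 1.53 CPM in WT and 14.98 and 9.17 CPM in STING-KO (log2 change 2.71 ± 0.37, adjusted p = 0.000253 by edgeR). Their functions are not given here.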
